A study of Caenorhabditis elegans with 11 samples.

Results

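The change in the transcriptome between day 5 and day 20 of adult life was described in Caenorhabditis elegans worms kept on 2-deoxy-D-glucose (DOG), a glucose analogue that is phosphorylated but not passed on through glycolysis. The series of 11 RNA-seq libraries followed the wild-type strain N2 (var. Bristol) at 1, 5, 10 and 20 days after the L4 larval stage, and the comparison rests on the 5 libraries whose labels give the ages of 20 days (2 libraries) and 5 days (3 libraries). The 20-day old worms and the 5-day old worms shared the strain, the heat-inactivated bacterial food and agar plates with 5 mM DOG, onto which they were put after L4. Progeny were removed daily by letting the rinsed adults sink, and each library was made from the total RNA of a pool of whole animals, with fewer animals at the oldest age. Age and time on DOG run together in these groups and cannot be told apart, and untreated worms were not analysed here. The labels do not say that replicates came from separate cultures, so p-values measure the spread between these libraries, which may be technical.

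A hermaphrodite makes its oocytes and eggs in the first days of adulthood, while its intestine produces large amounts of yolk protein, digestive proteases and antimicrobial proteins. By late adulthood egg laying has ended, no adult body cell divides, and the tissues that remain are the cells the worm had as a young adult together with what is left of its germline. An RNA library of whole worms sums over all of these tissues, and in such bulk samples fewer cells of a type and less RNA per cell cannot be told apart.

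Of 14773 genes tested, 10088 (68.3%) differed between 20-day old and 5-day old worms in edgeR's quasi-likelihood test at an adjusted p under 0.01. Higher levels at 20 days were called for 5211 genes (35.3%) and lower levels for 4877 (33.0%). Changes of at least 2-fold were found for 2509 up-regulated genes (17%) and 1428 down-regulated genes (9.67%), and changes of at least 16-fold for 144 and 209 genes. The median log2 change over all genes was 0.05, with quartiles at -0.43 and 0.72, so that the typical gene moved little while the tails were wide. These shares are the background against which the gene lists below are read.

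The direction of change differed between levels of expression, but not in a steady order. Levels are given as CPM, a gene's counts per 1000000 counts on genes of the library, and were averaged over the 5 libraries for this grouping. Of the 88 genes at 1000 CPM or more, 18.2% were called higher and 62.5% lower at 20 days. Between 100 and 1000 CPM the shares were nearly even, at 34.7% higher and 38.8% lower. Between 10 and 100 CPM 32.3% were called higher and 49.7% lower, whereas between 1 and 10 CPM 43% were called higher and 27.7% lower. Reads of the 20-day old worms were spread over more genes: 21832 and 22011 genes had a count at 20 days, against 18468 to 18538 at 5 days, and the 10 strongest genes took 4.94% and 5.44% of all counts, against 7.73% to 8.13%. The libraries of 20 days were also deeper, with 53042713 and 58499127 counts on genes, against 27679131 to 32169460 in those of 5 days, and the part of depth in the number of genes seen was not tested. The 2 libraries of 20 days stood close together, at a distance of 0.000738 (1 minus Pearson's r of log2(CPM + 1)), and the 3 of 5 days at 0.000983 on average, while pairs across the ages stood 0.0293 to 0.0320 apart.

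**Figure D1:**
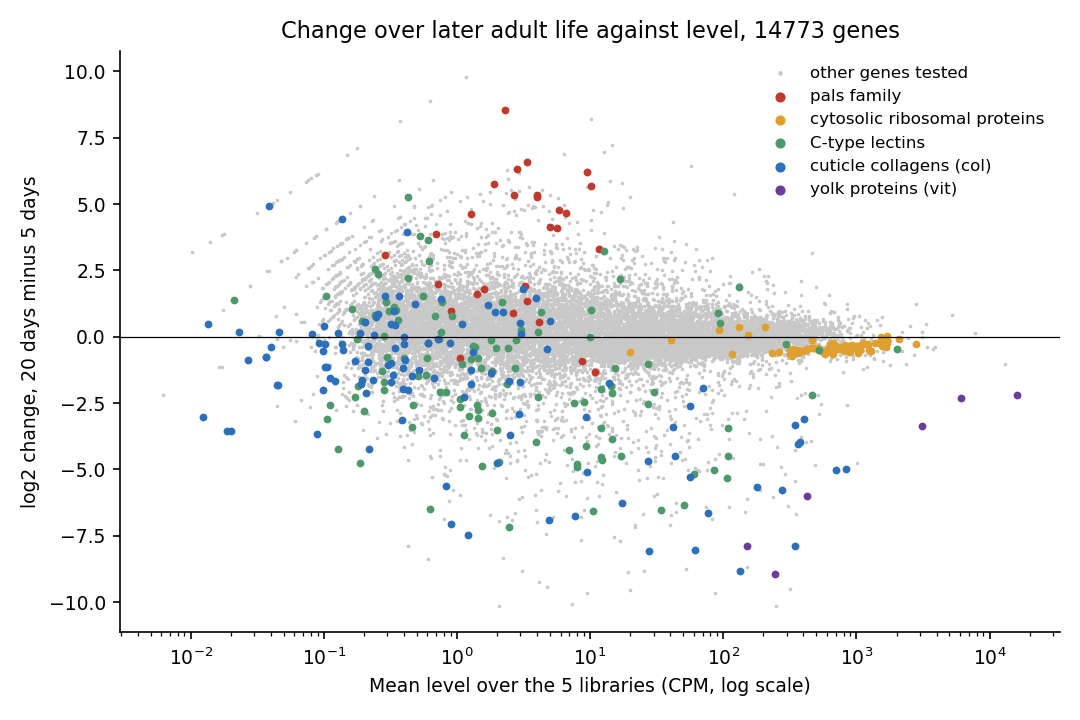
Log2 change between 20-day old and 5-day old worms (vertical axis) against the mean level of each tested gene over the 5 libraries in CPM (horizontal axis, log scale), with yolk, collagen, lectin, ribosomal protein and pals genes in colour. Genes at 1000 CPM or more lie mostly below 0, whereas the largest rises, up to a log2 change of 9.78, belong to genes of low level.

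Marker genes of tissues were read first. The summed level of intestinal markers was 1936 to 2078 CPM at 20 days, against 8436 to 9783 CPM at 5 days. Most of this sum is the yolk gene vit-2, and the intestinal transcription factor elt-2 went the other way, with 10.1 and 10.1 CPM at 20 days, against 4.37, 4.51 and 4.79 CPM at 5 days. Body wall muscle markers summed to 343 to 377 CPM, against 643 to 755 CPM, although the myosin gene myo-3, with 68.7 and 59.2 CPM, against 51.84, 39.57 and 47.86 CPM, went the other way. The epidermal sum of 24.41 to 25.11 CPM, against 85.2 to 102 CPM, was mostly the collagen col-19, and the transcription factor elt-3 had 8.276 and 8.564 CPM, against 8.273, 6.777 and 6.896 CPM. Pharyngeal markers (130 to 134 CPM at 20 days, against 61.4 to 68.9 CPM at 5 days) and neuronal markers (301 to 305 CPM, against 185 to 191 CPM) were higher in the old worms. Oocyte markers summed to 5777 to 5956 CPM, against 7459 to 7791 CPM, and all 4 were called lower. The germline sum was 2376 to 2383 CPM at 20 days, against 2506 to 2614 CPM at 5 days. Of its 4 markers 2 were called lower and 1 higher. By CPM, which is not TMM-scaled, 2 of the 4 were higher at 20 days. The level of glh-1 was 355.6 and 367.8 CPM, against 302.4, 295.6 and 294.8 CPM. That of glp-1 was 528.6 and 511.2 CPM, against 492.6, 472.8 and 438.3 CPM. The groups did not overlap in any of these sums, which was also so for most genes tested. In 49.2% of these genes every 20-day CPM lay above every 5-day CPM, and in 33.4% every 20-day CPM lay below. Larval markers were low but higher at 20 days in 3 of 3 genes tested (30.2 to 31.1 CPM, against 13 to 14.5 CPM), and embryonic markers overlapped between the ages (8.21 to 8.73 CPM, against 6.90 to 8.74 CPM). The part of larvae or embryos in the results was not tested.

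The genes that fell most included several known from pathogen responses. The infection response gene irg-4 (F08G5.6 in the files) had 0.735 and 0.0855 CPM in 20-day old worms, against 409, 423 and 418 CPM in 5-day old worms, a log2 change of -10.14 ± 0.17 (SE; edgeR adjusted p = 1.7e-19). The invertebrate-type lysozyme ilys-5 had 1.45 and 0.188 CPM, against 482, 539 and 564 CPM (log2 change -9.49), and sysm-1 (T24B8.5), which is known as a target of the p38 kinase PMK-1, had 0.302 and 0.0855 CPM, against 129, 150 and 151 CPM (-9.66). The collagen gene col-80 had 0.434 and 0.598 CPM, against 201, 221 and 245 CPM (-8.84). Each of these genes gave few reads in old worms and was well expressed in young adults. The rule for the largest falls required at least 100 counts in each 5-day library and no overlap between the ages. The other members of the 12 largest falls were scl-20, F55G11.8, C17H12.6, F01D5.1, F01D5.3, C32H11.4, dod-22 and the yolk gene vit-3, at log2 changes between -10.08 and -8.82. With so few reads left, the size of several of these falls rested on 1 library: without 20-day replicate 1 the log2 change was -12.29 for irg-4, -11.53 for ilys-5, -10.75 for sysm-1, -11.90 for scl-20, -12.26 for F55G11.8, -11.25 for F01D5.1, -11.08 for F01D5.3, -10.64 for dod-22 and -9.73 for vit-3. Without 20-day replicate 2 it was -9.25 for irg-4, -8.62 for ilys-5, -8.99 for sysm-1, -9.22 for scl-20, -8.69 for F55G11.8, -8.57 for F01D5.1, -8.39 for F01D5.3 and -7.96 for dod-22.

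Of the 209 genes that fell at least 16-fold, 146 (69.9%) had a higher CPM in 20-day replicate 1 than in replicate 2, against 57.2% of all genes tested. Their summed level was 627.9 and 540.4 CPM at 20 days, against 20890, 20230 and 21210 CPM at 5 days.

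The largest rises were in genes that were nearly silent at 5 days. C54F6.15, a gene without an annotated role, had 24.6 and 26.2 CPM in 20-day old worms, against 0.108, 0.0311 and 0.0958 CPM in 5-day old worms, a log2 change of 8.20 ± 0.27 (SE; edgeR adjusted p = 4.1e-14). The caenacin gene cnc-1, which encodes an antimicrobial peptide, had 34.1 and 37.8 CPM, against 0.253, 0.155 and 0.255 CPM (log2 change 7.23). The F-box gene fbxa-24, whose family encodes substrate adaptors of ubiquitin ligases, had 142 and 142 CPM, against 1.626, 1.399 and 1.5 CPM (6.45), the highest level among the 12 largest rises. C16C8.9 had 2.70 and 3.15 CPM at 20 days and no read at 5 days, and pals-11 (C17H1.13) had 6.39 and 4.99 CPM, against 0.0361, 0 and 0 CPM. The log2 change of pals-11 was 8.55, or 10.78 without 5-day replicate 1. The ages did not overlap in these 5 genes, but the rule by which the largest rises were chosen required this.

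**Figure D2:**
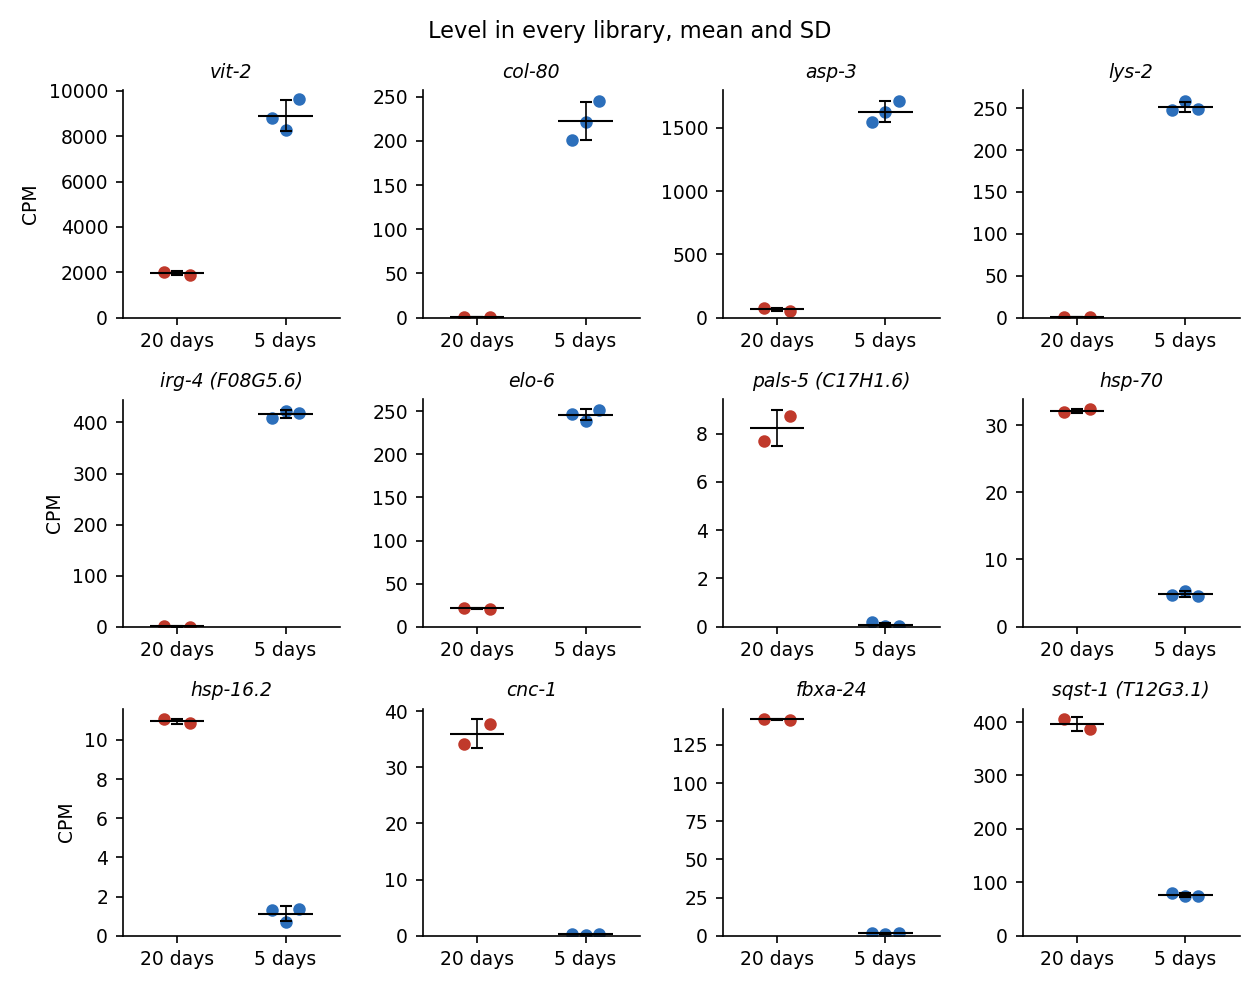
Level of 12 genes in every library (CPM, linear axis from 0), with 20-day old worms on the left and 5-day old worms on the right of each panel; points are libraries, the line is the mean and the bar the SD. In every panel the points of the ages lie apart, as for fbxa-24 (142 and 142 CPM, against 1.399 to 1.626 CPM) and asp-3 (74.2 and 55.1 CPM, against 1548 to 1712 CPM). Over all genes tested, 49.2% had every 20-day CPM above every 5-day CPM and 33.4% had every 20-day CPM below.

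Genes switched on or off were counted with strict limits. At 20 days only, 11 genes had at least 100 counts in each library of that age while no 5-day library had more than 3, and at 5 days only, 9 genes met the mirrored rule. Measured against a floor of 3 counts per library, C54F6.15 was at least 256-fold higher, T05A8.2 at least 68.8-fold higher and droe-8 (ZC196.6) at least 68.7-fold higher in 20-day old worms. C17H12.6 was at least 621-fold lower, F55G11.8 at least 292-fold lower and scl-20, of a family of cysteine-rich secreted proteins, at least 228-fold lower. These genes show on which side of detection each age stood, and the ratios are lower bounds.

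All 6 yolk protein genes, which the intestine transcribes to feed the oocytes, fell, with a median log2 change of -4.67. The most abundant of them, vit-6, had 5685 and 5311 CPM at 20 days, against 22970, 21620 and 24820 CPM at 5 days, a log2 change of -2.18 ± 0.09 (SE; edgeR adjusted p = 9.6e-14). For vit-2 the levels were 2028 and 1890 CPM, against 8822, 8283 and 9630 CPM (-2.3), and vit-1 had only 13.8 and 10.1 CPM, against 680, 685 and 730 CPM (-5.98). The family took 0.827% and 0.769% of all counts on genes in 20-day old worms, against 3.81%, 3.57% and 4.09% in 5-day old worms. The members thus fell unevenly, and vit-6 was still strongly expressed at 20 days. Reads of vit-3, vit-4 and vit-5, which are near-identical, could have been split or dropped in counting, so that their single values are uncertain.

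Oocyte and eggshell genes fell by much less than the yolk genes. Of 20 members, 17 were called lower and 2 higher, with a median log2 change of -0.47 and no fall of 2-fold or more. The oocyte maturation factor oma-2 had 516.5 and 508.6 CPM at 20 days, against 810, 868 and 846 CPM at 5 days (log2 change -0.83 ± 0.04, SE; edgeR adjusted p = 2.1e-12). The eggshell proteoglycan gene cpg-2 had 3437 and 3460 CPM, against 4099, 4294 and 4281 CPM (-0.40). The exceptions were perm-4 (C44B12.5) and perm-2, both needed for the permeability barrier of the embryo. The level of perm-4 was 4324 and 4465 CPM in 20-day old worms, against 1546, 1795 and 1894 CPM in 5-day old worms, a log2 change of 1.22 ± 0.07 (SE; edgeR adjusted p = 6.9e-12).

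Genes of the germline followed the same mild decline. Among 24 germline stem cell and P granule genes 15 were called lower and 4 higher (median log2 change -0.22), and among 25 meiotic chromosome genes 17 were lower and 2 higher (-0.39). The largest germline fall was in car-1, an RNA-binding protein of germline granules, with 728 and 755 CPM at 20 days, against 1469, 1505 and 1508 CPM at 5 days (-1.12 ± 0.05, SE; edgeR adjusted p = 1.5e-13). The largest meiotic fall was in cosa-1 (Y71H2AM.7), which marks crossover sites, with 17.95 and 16.94 CPM, against 33.64, 33.48 and 32.02 CPM (-1.03). The poly(A) polymerase gene gld-2 was called higher (0.38). With scaling by library size only, under which the median over all genes was 0.16, 7 germline genes were higher and 11 lower, so that the split of this list depends on the scaling. DNA replication genes were called higher in 4 and lower in 4 of 21 cases, at a median of -0.04 that turned to 0.08 with that scaling. The germline list still summed to 11300 to 11330 CPM in 20-day old worms, against 14660 to 14720 CPM in 5-day old worms.

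Histone genes moved upward in 14 of 21 members tested of 72 in the file, with 3 lower and a median log2 change of 0.75. The linker histone his-24 had 71.6 and 73.4 CPM at 20 days, against 25.7, 23.6 and 27.8 CPM at 5 days (1.39). Most histone genes give transcripts without a poly(A) tail, and their copies are near-identical, so that few of them could be measured. Sperm genes were at the edge of detection at both ages: the sperm-supplied gene spe-11 had 3.41 and 3.52 CPM, against 0.976, 0.746 and 0.862 CPM (1.90), and the 31 major sperm protein genes summed to 0.358 to 0.974 CPM, against 0.0723 to 0.249 CPM.

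Antibacterial effectors were mostly down-regulated. Lysozymes and saposin-like proteins, which attack bacterial walls and membranes, were called lower in 23 and higher in 8 of 34 members tested, with a median log2 change of -2.34, and their summed level was 549 to 585 CPM at 20 days, against 3469 to 3905 CPM at 5 days. The lysozyme gene lys-2 had 0.943 and 0.410 CPM, against 247, 258 and 249 CPM, a log2 change of -8.67 ± 0.13 (SE; edgeR adjusted p = 8.6e-20), or -9.35 without 20-day replicate 1. Its relative lys-7 fell less, to 155 and 143 CPM, against 741, 801 and 866 CPM (-2.54). Some members went the other way from a low level, such as lys-3 (24.02 and 23.85 CPM at 20 days, against 1.301, 0.8082 and 1.054 CPM at 5 days; 4.41) and the saposin-like spp-20 (4.53).

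C-type lectins, secreted sugar-binding proteins of which many respond to microbes in C. elegans, were called lower in 67 and higher in 18 of 113 members tested (median -1.30). Of these members 24 had at least 100 counts in each of the 5 libraries. The fall was steep for clec-85, with 0.754 and 0.581 CPM, against 49.3, 61.5 and 58.8 CPM (-6.52), but shallow for the most abundant lectin, clec-87, with 1692 and 1758 CPM, against 2122, 2236 and 2297 CPM (-0.47). In clec-264 the direction was opposite, with 27.1 and 28.2 CPM at 20 days, against 3.22, 2.24 and 2.87 CPM at 5 days (3.22). Among the dod and irg genes, named for their place downstream of DAF-16 or for their response to infection, 14 of 16 tested were lower and 2 higher (median -2.78). This list was drawn up after the values of some members had been seen. Its member dod-24 had 0.151 and 0.137 CPM, against 26.5, 28.4 and 28.5 CPM (-7.68), while irg-1 (1.56) and irg-2 (2.09), induced in worms whose translation is blocked by a bacterial toxin, were the members that rose.

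Digestive and lysosomal proteases fell with them. Of 19 cathepsin B and aspartyl proteases tested, 16 were called lower and 2 higher, the median log2 change was -2.11, and the sum over the list was 1600 to 1671 CPM in 20-day old worms, against 8276 to 9127 CPM in 5-day old worms. The aspartyl protease gene asp-3 had 74.2 and 55.1 CPM, against 1548, 1622 and 1712 CPM, a log2 change of -4.77 ± 0.10 (SE; edgeR adjusted p = 7.3e-18). For asp-13 (F28A12.4) the levels were 2.28 and 2.29 CPM, against 180, 184 and 182 CPM (-6.42). The members called higher were cpr-2 (2.82), at 1.66 and 2.21 CPM, against 0.217, 0.218 and 0.319 CPM, and asp-17 (1.16). The summed intestinal markers given above fell along with these lists, while elt-2 was higher, and the part of the amount of intestine in these falls was not tested.

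A different set of defence genes was up-regulated. Of 28 tested members of the pals family, several of which are known in C. elegans from the response to intracellular pathogens, 25 were called higher and 3 lower, with a median log2 change of 3.97. The family was listed after some of its values had been seen, and it was expressed weakly, with a sum of 217 to 238 CPM at 20 days, against 42.0 to 45.5 CPM at 5 days. pals-5 (C17H1.6), widely used as a reporter of that response, had 7.69 and 8.75 CPM, against 0.181, 0.0311 and 0.0319 CPM, a log2 change of 6.58 ± 0.29 (SE; edgeR adjusted p = 2.1e-13), or 7.78 without 5-day replicate 1. pals-14 (F22G12.1) had 24.6 and 21.6 CPM, against 0.325, 0.373 and 0.160 CPM (6.21), and pals-26 (B0284.1) had 27.32 and 24.03 CPM, against 2.601, 2.238 and 2.331 CPM (3.32). The rise thus covered most of the tested members but not all of them. The members that fell were pals-23 (C29F9.3, -1.34), pals-24 (C29F9.4, -0.91) and pals-16 (Y82E9BR.4, -0.80), whose call was lost without 20-day replicate 2 (-0.71). Only 2 members had at least 100 counts in each of the 5 libraries, with a median of -1.045, so that most passed the count minimum through the age at which they were high, and the median describes the tested members and not the family.

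Caenacins and fungus-induced peptides, many of them made by the epidermis, also changed. Of 29 tested cnc, fip and related fungus-induced genes 16 were called higher and 8 lower (median 0.62), and their sum was 750 to 838 CPM at 20 days, against 314 to 365 CPM at 5 days. Besides cnc-1, the best expressed caenacin cnc-4 rose, with 115 and 127 CPM, against 40.4, 42.5 and 46.8 CPM (1.38), as did fip-1 (4.94), whereas cnc-7 fell (-4.76). F-box families had 69 members higher and 43 lower of 256 tested, at a median of 0.07, which is not far from the median of all genes. Their largest rises were fbxa-24, fbxa-75 (5.14), fbxa-165 (4.38) and fbxa-158 (4.30). MATH-domain families, other adaptors of ubiquitin ligases, were higher in 18 and lower in 25 of 60 members, between math-34 (3.03) and math-45 (-3.17).

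Inducible heat shock genes that could be measured were up-regulated at 20 days. All 3 of the inducible heat shock genes that could be tested, of 9 in the file, were called higher. Of these, 1 had at least 100 counts in each of the 5 libraries, so the calls describe the tested members and not all 9. The level of hsp-70, the heat-inducible cytosolic chaperone, was 31.9 and 32.3 CPM at 20 days, against 4.77, 5.29 and 4.50 CPM at 5 days, a log2 change of 2.61 ± 0.09 (SE; edgeR adjusted p = 3.6e-15). For hsp-16.2 it was 11.05 and 10.87 CPM, against 1.301, 0.715 and 1.373 CPM (3.18), and for hsp-16.41 12.07 and 12.92 CPM, against 1.734, 1.306 and 1.692 CPM (2.88). The other hsp-16 genes come in near-identical pairs whose reads may have been lost in counting. Small heat shock proteins outside hsp-16 were mixed, with 6 higher and 3 lower of 11: hsp-12.6 had 12.22 and 12.05 CPM, against 1.084, 1.119 and 1.054 CPM (3.37), and hsp-43 128 and 124 CPM, against 40.7, 36.5 and 39.6 CPM (1.59), but hsp-25 (-0.72) and sip-1 (-0.70) fell, and the list summed to 2299 to 2337 CPM at 20 days, against 2866 to 3580 CPM at 5 days.

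Constitutive chaperones rose moderately, in 20 of 25 members, with 3 lower and a median log2 change of 0.35. The cytosolic chaperone hsp-90 (daf-21) had 4189 and 4155 CPM, against 2862, 2822 and 2651 CPM (0.48). In the endoplasmic reticulum, the protein disulfide isomerase pdi-2 had 939.5 and 941.9 CPM at 20 days, against 449.7, 442.3 and 458.6 CPM at 5 days (0.95), and the BiP gene hsp-3 had 909.1 and 905.6 CPM, against 461.4, 440.9 and 445.0 CPM (0.91). The mitochondrial chaperones went apart: hsp-6 had 946 and 989 CPM, against 587, 570 and 567 CPM (0.64), while hsp-60 had 249 and 256 CPM, against 382, 395 and 388 CPM (-0.73). Chaperones of the reticulum thus lay at the upper end of the list and hsp-60 at its lower end.

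Lists of protein degradation genes differed in their calls. Proteasome subunits were called lower in 15 and higher in 2 of 31 cases with small changes, between -0.51 for pas-2 and 0.32 for rpn-2. With scaling by library size 11 were lower and 6 higher, and the median moved from -0.125 to -0.014. The summed level of the subunits was 8756 to 8833 CPM at 20 days, against 8493 to 8627 CPM at 5 days, so that no direction is given for this list. Autophagy genes, a list drawn up after values had been seen, were higher in 18 and lower in 7 of 28 (median 0.24). Among them sqst-1 (T12G3.1), the p62-type receptor that links ubiquitinated cargo to autophagosomes, had 405 and 387 CPM at 20 days, against 79.5, 74.0 and 73.4 CPM at 5 days, a log2 change of 2.28 ± 0.04 (SE; edgeR adjusted p = 6.5e-19). The autophagosome protein gene lgg-1 had 583 and 580 CPM, against 360, 346 and 343 CPM (0.62), epg-5 rose by 1.46 on the log2 scale, and atg-10 fell by 1.16.

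**Figure D3:**
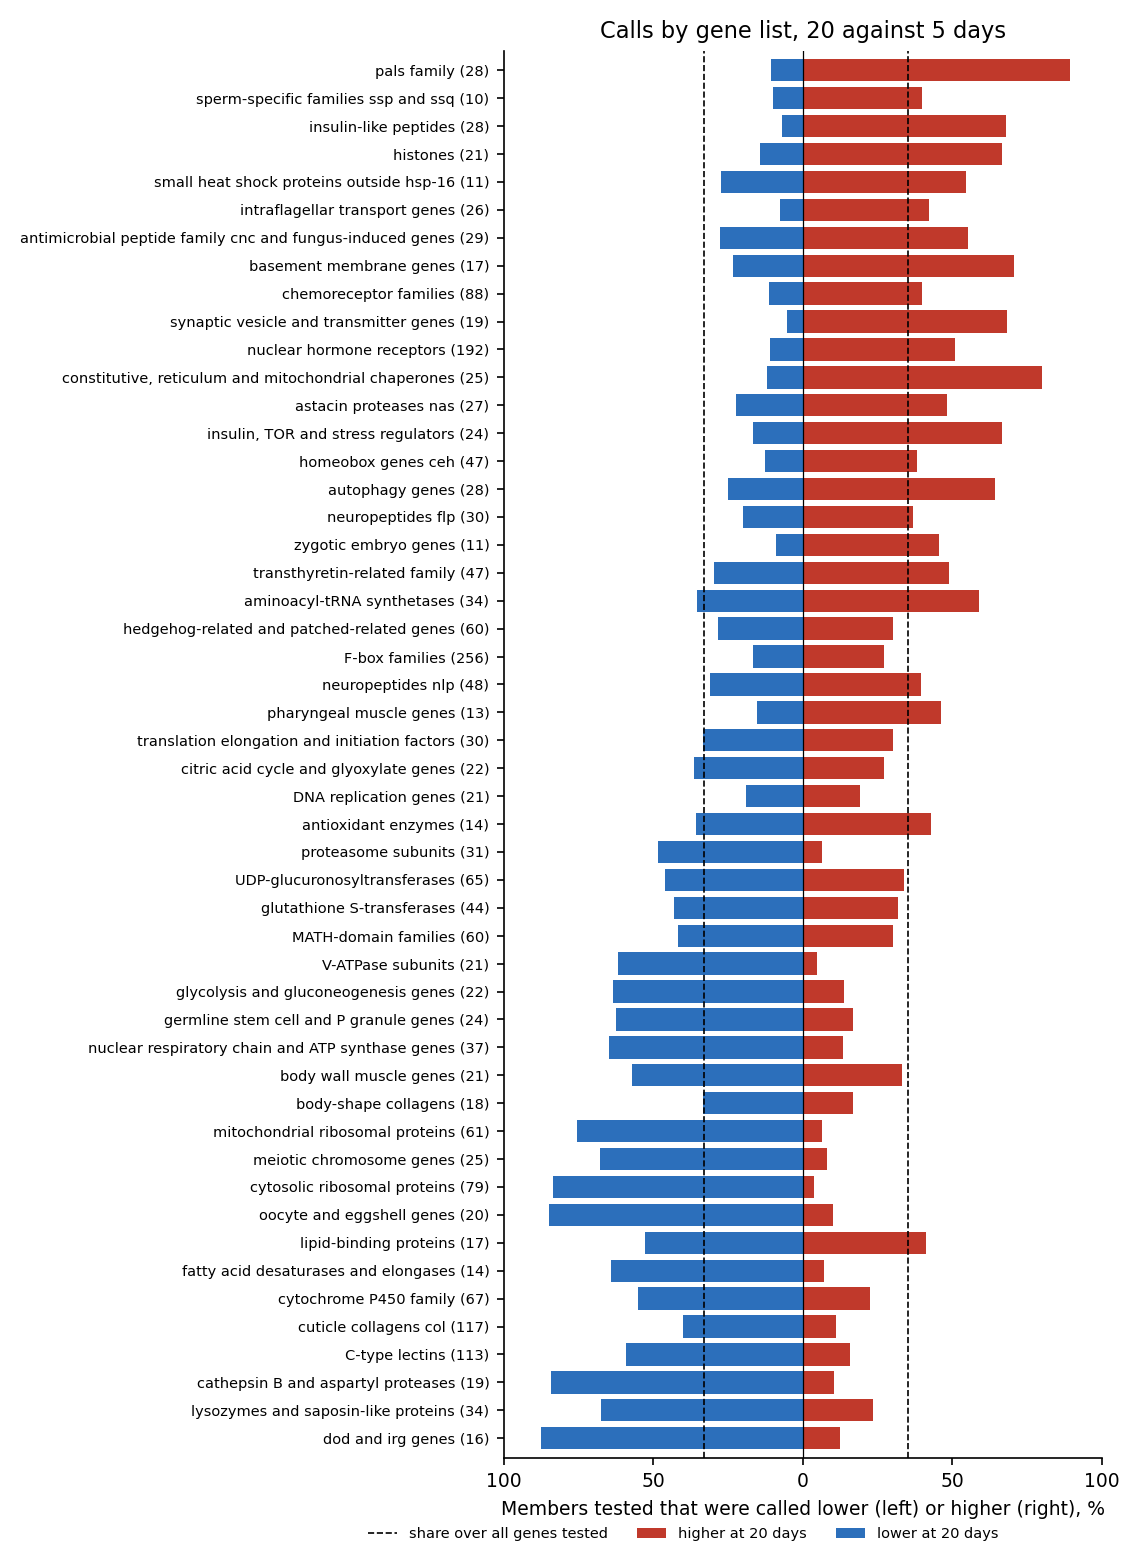
Share of the tested members of each gene list with at least 10 of them that were called higher (to the right) or lower (to the left) in 20-day old than in 5-day old worms, in percent, with the number tested in brackets; dashed lines mark the shares over all genes tested (35.3% higher, 33.0% lower). Ribosomal protein, oocyte and protease lists lie far to the left, while pals, chaperone, synaptic and insulin-like lists lie to the right.

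Cuticle collagens, structural proteins of the worm's outer coat, were called lower in 47 and higher in 13 of 117 members tested. The share called lower was 40.2%, against 33.0% over all genes tested, and the share called higher 11.1%, against 35.3%. The median log2 change was -1.26. Of the tested members 17 had at least 100 counts in each of the 5 libraries, so the median describes the tested members and not the family. The sum over the family was 440 to 465 CPM at 20 days, against 6565 to 8106 CPM at 5 days. The best expressed member, col-122, had 47.3 and 46.0 CPM, against 1213, 1315 and 1549 CPM, a log2 change of -4.98 ± 0.09 (SE; edgeR adjusted p = 8.2e-19), and col-101 had 2.66 and 2.60 CPM, against 542, 561 and 631 CPM (-7.89). All 47 members called lower fell at least 2-fold. Hedgehog-related and patched-related genes, many of them active in the epidermis, were split at 18 higher and 17 lower of 60, with steep falls in grd-4 (-6.72), grd-3 (-5.18) and grd-5 (-5.07). Astacin proteases were higher in 13 and lower in 6 of 27, from nas-3 (-4.72) to nas-10 (3.80). The summed epidermal markers given above fell as well, but nearly all of that sum is col-19, itself a member of this list.

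Basement membrane genes divided by protein. Of 17 members 12 were called higher and 4 lower (median 0.58). The laminin gamma gene lam-2 had 90.5 and 83.1 CPM at 20 days, against 28.1, 20.5 and 19.4 CPM at 5 days (log2 change 1.84 ± 0.08, SE; edgeR adjusted p = 3.6e-13), and the fibulin gene fbl-1 (2.25), the dystroglycan gene dgn-1 (1.79), the hemicentin gene him-4 (1.64) and the laminin beta gene lam-1 (1.33) were higher too. Both type IV collagens fell, let-2 with 113.4 and 109.3 CPM, against 248.2, 234.8 and 239.7 CPM (-1.22), and emb-9 with 74.7 and 69.8 CPM, against 153, 141 and 141 CPM (-1.12). The nidogen gene nid-1 (-1.99) and the SPARC gene ost-1 (-0.56) were the other members called lower. Laminins and type IV collagens, the networks from which the membrane is built, thus moved in opposite directions.

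Body wall muscle genes were called lower in 12 and higher in 7 of 21 cases (median -0.26). Those that fell included thick and thin filament proteins: the myosin heavy chain unc-54 had 158 and 141 CPM at 20 days, against 472, 404 and 450 CPM at 5 days (-1.67 ± 0.06, SE; edgeR adjusted p = 2.4e-14), and the troponin T gene tnt-2 had 13.59 and 13.04 CPM, against 76.3, 70.3 and 81.8 CPM (-2.63). The giant structural proteins were higher, with dystrophin (dys-1, 1.117), titin (ttn-1, 1.08) and unc-89 (0.68). Of 13 pharyngeal muscle genes 6 rose and 2 fell, with a median of 0.04, near the 0.05 of all genes tested, and a lowest change of -1.28. The pharyngeal myosin myo-2 had 84.1 and 81.8 CPM, against 35.5, 29.2 and 35.2 CPM (1.21), and the organ's selector gene pha-4 had 14.2 and 13.9 CPM, against 3.79, 4.23 and 3.42 CPM (1.77). The body wall myosin unc-54 and the pharyngeal myosin myo-2 thus differed in direction. The body wall myosin myo-3 was higher at 20 days (68.7 and 59.2 CPM, against 51.84, 39.57 and 47.86 CPM), so body wall myosins themselves moved both ways.

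Transthyretin-related genes, secreted proteins found in large number in nematodes, were higher in 23 and lower in 14 of 47 members, and their sum was 3323 to 3408 CPM at 20 days, against 1760 to 1825 CPM at 5 days. Most of the gain came from abundant members such as ttr-2, with 896 and 924 CPM, against 222, 233 and 231 CPM (1.88), and ttr-51, with 322 and 330 CPM, against 55.9, 55.3 and 55.5 CPM (2.44). The largest changes of the family were ttr-32 (3.05) and ttr-44 (-4.32).

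DOG enters metabolism at the first step of glycolysis. Over the later life of treated worms, glycolysis and gluconeogenesis genes were called lower in 14 and higher in 3 of 22 cases (median -0.22). The largest fall was that of pck-1 (W05G11.6), which encodes phosphoenolpyruvate carboxykinase, the entry enzyme of gluconeogenesis, with 29.01 and 27.45 CPM at 20 days, against 179, 191 and 208 CPM at 5 days, a log2 change of -2.88 ± 0.07 (SE; edgeR adjusted p = 3.3e-17). The fructose-bisphosphatase gene fbp-1, also of gluconeogenesis, had 87.7 and 88.3 CPM, against 157, 164 and 161 CPM (-0.98). The aldolases parted, aldo-1 with 73.6 and 79.4 CPM, against 43.3, 43.1 and 43.1 CPM (0.72), and the more abundant aldo-2 with 699 and 712 CPM, against 945, 935 and 979 CPM (-0.54).

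The enzymes closest to DOG changed little. Glucose-6-phosphate isomerase (gpi-1), which phosphorylated DOG inhibits, had 160 and 159 CPM at 20 days, against 188, 183 and 178 CPM at 5 days (log2 change -0.31 ± 0.04, SE; edgeR adjusted p = 2.7e-06). Of the hexokinases, hxk-1 (F14B4.2) and hxk-2 (H25P06.1) fell by 0.24 and 0.19 on the log2 scale (hxk-2 lost its call with scaling by library size, at -0.08) and hxk-3 (Y77E11A.1) did not pass the test, at 0.03 (edgeR adjusted p = 0.53), but was called higher with that scaling, at 0.14. The pyruvate kinase genes pyk-1 (-0.31) and pyk-2 (-0.79) were lower. With scaling by library size 11 genes of this list were lower and 5 higher.

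Citric acid cycle and glyoxylate genes were balanced, with 6 higher and 8 lower of 22 at a median of -0.01, which was 0.10 with scaling by library size, so that no direction is given for the list. The malate dehydrogenase gene mdh-2 had 290 and 291 CPM at 20 days, against 458, 460 and 456 CPM at 5 days (-0.77), mdh-1 fell by 0.74, and the succinyl-CoA ligase gene suca-1 rose by 0.56. Nuclear genes of the respiratory chain and ATP synthase were lower in 24 and higher in 5 of 37 (median -0.25), or lower in 18 and higher in 8 by library size. Transcripts of the mitochondrial genome fell further, in 8 of 9 genes tested (median -1.23). Cytochrome b (ctb-1) had 667 and 651 CPM, against 1506, 1362 and 1416 CPM (-1.23 ± 0.05, SE; edgeR adjusted p = 5.6e-14), and cytochrome c oxidase subunit 3 (MTCE.23) had 1104 and 1069 CPM, against 1976, 1788 and 1936 CPM (-0.92). The remaining gene tested, MTCE.7, was higher (0.46).

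Fatty acid desaturases and elongases were called lower in 9 and higher in 1 of 14 cases (median -0.61). The elongase elo-6, which makes branched-chain fatty acids together with elo-5, had 21.6 and 21.1 CPM at 20 days, against 247, 239 and 252 CPM at 5 days, a log2 change of -3.64 ± 0.08 (SE; edgeR adjusted p = 9.6e-18), and elo-5 had 8.82 and 7.57 CPM, against 61.7, 57.7 and 62.8 CPM (-3). The stearoyl-CoA desaturase fat-6 had 113.5 and 113.3 CPM, against 267, 280 and 282 CPM (-1.396), and fat-2, the first enzyme towards polyunsaturated fatty acids, 678 and 675 CPM, against 1127, 1119 and 1134 CPM (-0.85). The one member that rose, elo-9 (0.85), was weakly expressed. Lipid-binding proteins were lower in 9 and higher in 7 of 17, and lbp-8, which carries lipid signals from the lysosome to the nucleus, had 0.0943 and 0.0684 CPM, against 9.18, 8.21 and 8.68 CPM (-6.80). Of the V-ATPase subunits, which acidify lysosomes and the gut lumen, 13 of 21 were lower and 1 higher (median -0.22), with the largest change in the intestinal vha-6, at 33.1 and 30.3 CPM, against 120, 115 and 116 CPM (-1.995).

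The translation machinery showed a uniform but small decline in ribosomal proteins. Cytosolic ribosomal protein genes were called lower in 66 and higher in 3 of 79 cases, within a narrow range around a median log2 change of -0.40, and 57 were called lower with scaling by library size. The gene with the largest change was rpl-29, with 243 and 249 CPM at 20 days, against 339, 406 and 397 CPM at 5 days (-0.74 ± 0.08, SE; edgeR adjusted p = 7.2e-08). The members called higher were rpl-11.2 and rpl-25.1 (0.36 each) and rpl-24.2 (0.27). Mitochondrial ribosomal proteins were lower in 46 and higher in 4 of 61 (median -0.35), with mrpl-36 (-1.35) and mrps-25 (-1.17) at the low end. No cytosolic ribosomal protein changed by 2-fold.

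Other parts of the same machinery did not share this decline. The elongation factor eef-2, which moves the ribosome along the mRNA, had 7372 and 7351 CPM, against 3997, 3774 and 3797 CPM (0.82 ± 0.05, SE; edgeR adjusted p = 7.5e-11), and eef-1A.2 had 1077 and 1064 CPM, against 359, 307 and 331 CPM (1.58). Elongation and initiation factors were higher in 9 and lower in 10 of 30, or 14 and 5 with scaling by library size. Aminoacyl-tRNA synthetases, which load tRNAs with amino acids, were higher in 20 and lower in 12 of 34 (median 0.21): the seryl enzyme sars-1 had 481 and 476 CPM at 20 days, against 200, 188 and 190 CPM at 5 days (1.202), and iars-1 rose by 1.04, whereas nars-2 fell by 1.14. The lists of factors and synthetases were drawn up after values had been seen.

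Detoxification families had members moving both ways. Cytochrome P450 genes were called lower in 37 and higher in 15 of 67 cases (median -0.62), between cyp-35B2 (-3.94) and cyp-13A1 (3.95). Glutathione S-transferases were lower in 19 and higher in 14 of 44, and UDP-glucuronosyltransferases lower in 30 and higher in 22 of 65. Within these families single members moved far: gst-10 had 0.528 and 0.445 CPM at 20 days, against 23.8, 28.1 and 25.8 CPM at 5 days (-5.85), while gst-37 had 5.35 and 6.56 CPM, against 0.0361, 0.0622 and 0.160 CPM (5.93, or 6.70 without 5-day replicate 3), and ugt-9 had 11.7 and 12.4 CPM, against 0.253, 0.311 and 0.255 CPM (5.33). The oxidative stress reporter gene gst-4 fell by 1.00 on the log2 scale.

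Among 14 antioxidant enzymes tested 6 were higher and 5 lower. The superoxide dismutases sod-5 (2.06) and sod-4 (1.39), of low level, rose, the main cytosolic and mitochondrial ones, sod-1 (-0.46) and sod-2 (-0.18), fell slightly (sod-2 lost its call with scaling by library size, at -0.07), and sod-3 did not pass the test (-0.08, edgeR adjusted p = 0.54). The ferritins, which store iron, were lower. ftn-1 had 34.8 and 34.99 CPM at 20 days, against 84.0, 97.5 and 95.0 CPM at 5 days (-1.51), and ftn-2 fell by 0.93.

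Neuronal and signalling lists held more genes called higher than lower, but several shares lay near those over all genes tested (35.3% higher, 33.0% lower). Neuropeptide genes were among these, with 11 higher and 6 lower of 30 flp genes (36.7% and 20.0%). Of 48 nlp genes 19 were higher and 15 lower (39.6% and 31.2%). Synaptic vesicle and transmitter genes were called higher in 13 and lower in 1 of 19 cases (median 0.53). The vesicle priming gene unc-13 had 28.28 and 27.23 CPM at 20 days, against 13.69, 10.48 and 11.37 CPM at 5 days (1.13 ± 0.08, SE; edgeR adjusted p = 1.9e-10), and the synaptobrevin gene snb-1 had 260 and 265 CPM, against 165, 173 and 166 CPM (0.53). The exception was unc-25 (-0.57), which makes GABA. Intraflagellar transport genes, needed for the cilia of sensory neurons, were higher in 11 and lower in 2 of 26 (median 0.70), with klp-11 (1.67) and che-3 (1.403) in front, but the median was -0.047 over the 5 members with at least 100 counts in each of the 5 libraries. The 4 neuronal markers summed above are members of the synaptic list and give no separate measure of neuronal RNA.

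Insulin-like peptides, the many ligands of the receptor DAF-2, were higher in 19 and lower in 2 of 28 members tested (median 1.07). Of these, 1 had at least 100 counts in each of the 5 libraries, so that most passed the count minimum through the age at which they were high, and the 20-day libraries were deeper. The sum of the family was alike at both ages, at 70.6 to 74.1 CPM in 20-day old worms and 70.5 to 74.3 CPM in 5-day old worms. The largest fall was that of ins-19, with 1.28 and 1.08 CPM, against 42.6, 45.5 and 43.9 CPM (-5.33 ± 0.13, SE; edgeR adjusted p = 2.3e-17). ins-27 fell by 3.34, and ins-20 (4.91), ins-8 (4.89, or 5.75 without 5-day replicate 3) and ins-11 (3.89) rose from levels close to 0. The fall thus concerned a strongly expressed peptide and the rises mostly weakly expressed ones. Regulators of insulin, TOR and stress signalling, listed after values had been seen, were higher in 16 and lower in 4 of 24. The receptor daf-2 had 346 and 335 CPM at 20 days, against 203, 201 and 186 CPM at 5 days (0.68), its downstream factor daf-16 had 301 and 303 CPM, against 219, 217 and 226 CPM (0.35), and the TFEB-like factor hlh-30 had 70.6 and 70.2 CPM, against 30.5, 31.5 and 31.7 CPM (1.06). The heat shock factor hsf-1 fell by 0.18 on the log2 scale, a call that was lost with scaling by library size (-0.07).

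Nuclear hormone receptors were called higher in 98 and lower in 21 of 192 members tested (median 0.47). Most were weakly expressed, as nhr-67, with 4.77 and 4.09 CPM, against 0.325, 0.373 and 0.351 CPM (3.53). Chemoreceptor genes could be tested for 88 of 1338 in the file, of which 35 were higher and 10 lower, and 3 had at least 100 counts in each of the 5 libraries. The best expressed, srr-4, had 74.3 and 77.1 CPM at 20 days, against 8.06, 6.50 and 6.70 CPM at 5 days (3.31). Homeobox genes of the ceh class were higher in 18 and lower in 6 of 47, with ceh-43 at 22.4 and 19.7 CPM, against 5.56, 4.38 and 4.76 CPM (2.00). Of the nuclear hormone receptors 73, and of the ceh genes 24, had at least 100 counts in each of the 5 libraries. These families thus did not lie at the lowest levels as a whole. Among all genes under 1 CPM, 30.6% were called higher and 10.6% lower, and the shares at higher levels are given above. The part of expression level in the calls of these families was not tested.

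Genes of the X chromosome stood out from those of the autosomes. Of 2146 X-linked genes 47.3% were called higher and 20.6% lower, with a median log2 change of 0.37, whereas of 12618 genes on chromosomes I to V 33.3% were higher and 35.1% lower, with a median of 0.00. In C. elegans the X chromosome is kept largely silent in the germline. The difference was widest at intermediate levels: between 10 and 100 CPM, 58.6% of X-linked genes were higher and 23.6% lower, against 27.6% and 54.4% of autosomal genes. Under 1 CPM the shares were close, at 29.6% and 9.19% on X and 30.8% and 10.9% on the autosomes. X-linked genes took 5.83% and 5.68% of all counts at 20 days, less than the 6.4%, 6.23% and 6.53% at 5 days. Leaving out the yolk genes, the direction was opposite, with 5.57% and 5.44% at 20 days, against 4.89%, 4.82% and 4.92% at 5 days. In the fit reported and its 13 alternatives the median lay between 0.34 and 0.48 on X and between -0.05 and 0.12 on the autosomes. Genes are not independent replicates, and these shares are given as a description. Over the same interval all 4 oocyte markers were called lower, and of the 4 germline markers 2 were called lower and 1 higher, as given above. The part of oocytes and germline in the shift of X-linked genes was not tested.

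**Figure D4:**
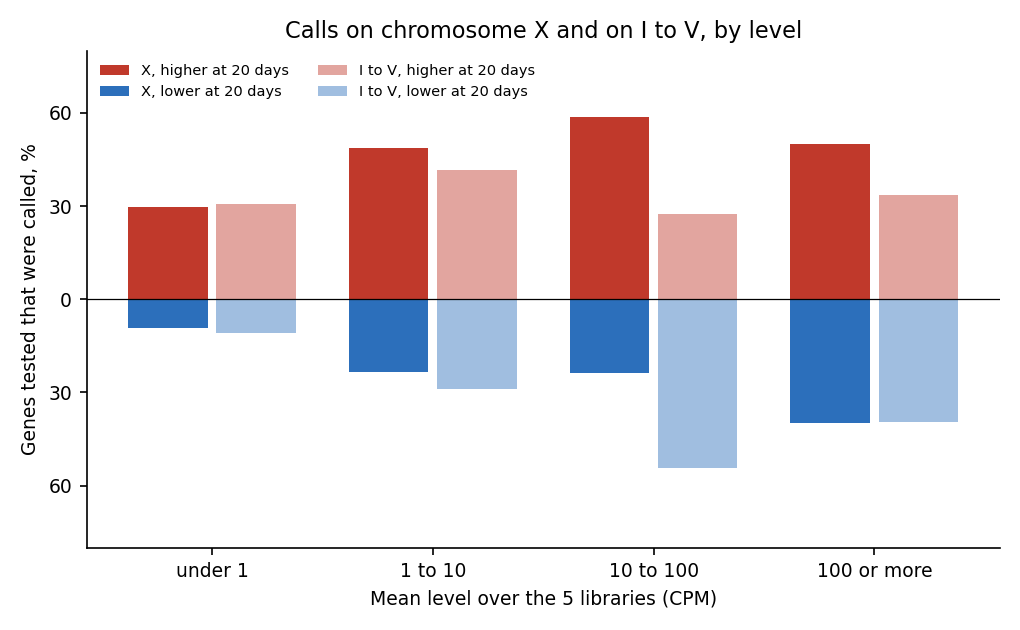
Share of genes called higher (above 0) or lower (below 0) in 20-day old than in 5-day old worms, in percent, by mean level over the 5 libraries (CPM), for chromosome X (full colour) and chromosomes I to V (pale). Between 10 and 100 CPM 58.6% of the X-linked genes were higher, against 27.6% of the others, while under 1 CPM the shares were alike.

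The libraries of 10 days show when in this interval the levels changed. The comparisons of 10 with 5 days and of 20 with 10 days share the 10-day libraries, so their medians are given side by side only. Cuticle collagens moved early, with a median log2 change of -1.22 for 10 against 5 days and -0.17 for 20 against 10 days, as did the tested scl genes (-1.86 and -0.56). Of the 8 scl genes tested 2 had at least 100 counts in each of the 5 libraries. Other falls came late: cathepsin B and aspartyl proteases had medians of 0.21 and -2.49, lysozymes and saposin-like proteins of -0.31 and -2.12, C-type lectins of -0.10 and -1.25. The medians of yolk genes (-1.26 and -3.53) and of dod and irg genes (-1.24 and -2.09) were below 0 in both steps. The rises of the tested inducible heat shock genes (0.05 and 2.76) and of the tested pals genes (0.91 and 2.66) also lay mostly after day 10.

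Single genes make these courses visible. asp-3 had 1548 to 1712 CPM at 5 days, 1350 to 1555 CPM at 10 days and 74.2 and 55.1 CPM at 20 days. hsp-70 had 4.50 to 5.29 CPM at 5 days and averaged 4.46 ± 0.47 CPM at 10 days (SD, n = 3), and pals-5 averaged 0.208 ± 0.065 CPM at 10 days. By contrast, irg-4 was already at 25.7 ± 2.0 CPM and col-101 at 42.1 ± 1.8 CPM at 10 days. Intermediate courses were seen for elo-6 (81.9 to 103.5 CPM at 10 days), fbxa-24 (19.5 ± 0.7 CPM) and sqst-1 (131 ± 5 CPM), which lay between the levels of 5 and 20 days.

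**Figure D5:**
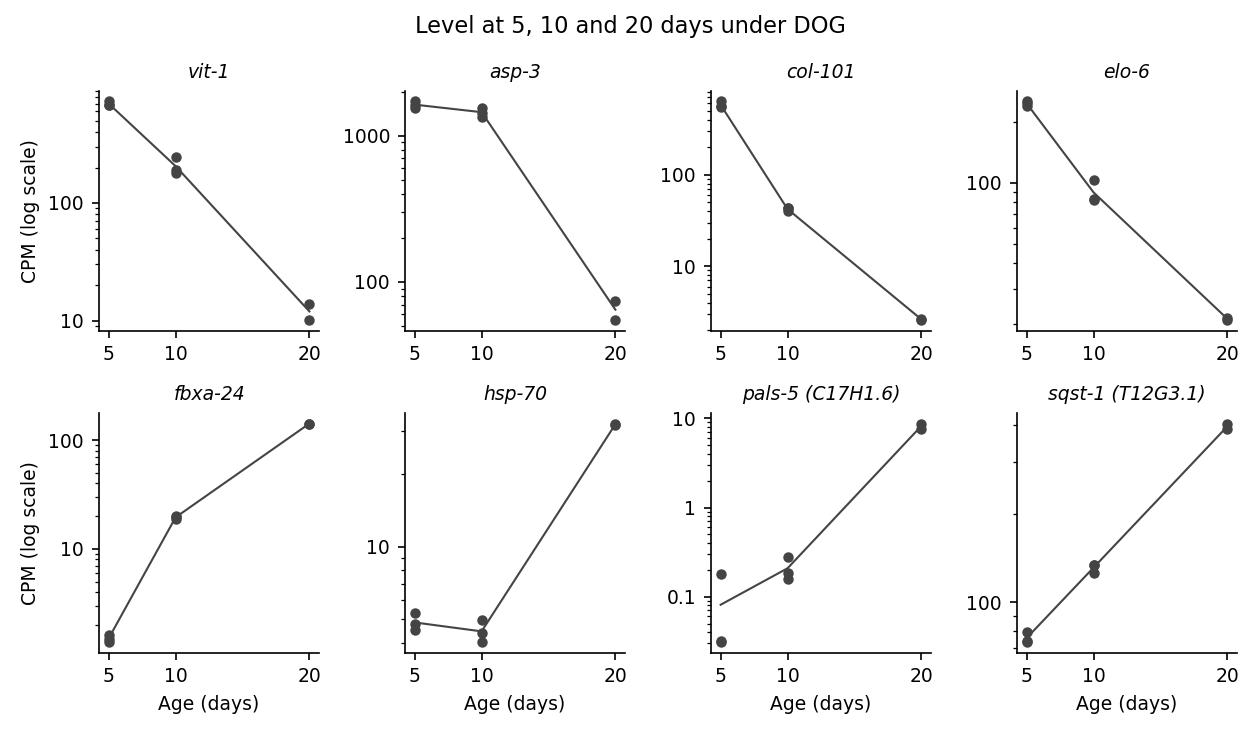
Level of 8 genes (CPM, log scale) at 5, 10 and 20 days on DOG; points are libraries and the line joins the means. asp-3 had 1350 to 1555 CPM at 10 days and 74.2 and 55.1 CPM at 20 days, whereas col-101 averaged 42.1 CPM by 10 days.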

How the data were processed

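RNA of whole worms had been sequenced as single reads, which the authors aligned with TopHat 1.4.1 to the WS220 genome and counted per gene with HTSeq (union mode). The deposited values are raw counts, which were used as deposited. Whether counting used strand is not given in the sources used here. Of 45461 genes in the file 26569 had a count, and the 14773 whose total over the 11 libraries reached 100 were tested. The 11 libraries held 23648292 to 58499127 counts, and the biological coefficient of variation was 4.14%.

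edgeR 4.0.16 (R 4.3.3) fitted TMM-scaled counts of all 11 libraries with 1 coefficient per age, so that all ages share the estimate of spread. The quasi-likelihood test of 20 minus 5 days used Benjamini-Hochberg adjustment over all genes tested and a threshold of 0.01. TMM factors were 1.066 and 1.076 at 20 days and 0.9826 to 1.002 at 5 days, so that log2 changes lie slightly below the ratios of CPM. The fit was also run on simulated counts with few changed genes and a common spread, which does not test it where most genes change, as here. Replicate pairs differed by more than counting noise (chi-square per degree of freedom 8.95 at 20 days and 9.54 to 12.5 at 5 days). The annotation WBcel235 supplied current symbols, biotypes, chromosomes and overlaps for 14568 genes, and no coordinates are given because the builds differ.

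Genes were named by a rule: the 12 largest rises and falls whose libraries did not overlap and reached 100 counts each at the age with more, the strongest member and up to 4 most changed called members of each list (all members of lists of up to 12), the strongest genes of each age, up to 5 genes on at 1 age only in each direction, and tissue markers. Another 43 genes were named after their values had been seen, mostly members that ran against their list or made up a small count, glucose entry enzymes and insulin signalling genes. The gene lists, 56 in all, and these choices were made with earlier results of these data known. The pals, scl, dod and irg, translation factor, synthetase, regulator and autophagy lists were added after values had been seen. Alternatives covered scaling, DESeq2 1.42.0, count minimums, the samples in the fit, a replicate block and leaving out each library. Figures used matplotlib 3.10.9.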

Additional observations from a re-analysis of the deposited data

How the results depend on the processing

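No gene called in the comparison of 20 with 5 days was called in the opposite direction under any of 13 alternatives, and 88.3% to 98.4% of the calls were shared with each. Of 341 called named genes 309 kept the call wherever they were tested and 32 lost it at least once. With at least 100 counts in every one of the 5 libraries, which leaves 8471 genes in common, 3227 genes were higher, 756 of them at least 2-fold, and 532 at least 2-fold lower. The median log2 change over all genes was 0.157 with library size only and 0.161 with upper quartile factors, against 0.047. List medians changed sign for ssp and ssq genes (-0.279, 5 libraries only), with library size and upper quartile scaling for antioxidant enzymes (0.003 and 0.007), DNA replication genes (0.075 and 0.078) and citric acid cycle genes (0.105 and 0.109), and, with 100 counts in each library, zygotic embryo genes (-0.415), intraflagellar transport genes (-0.047) and pals genes (-1.045, 2 members left), F-box families (-0.046), DNA replication genes (0.044) and citric acid cycle genes (0.075), the last also by up to 0.024 with the block or without a library. Leaving out a library gave 4511 to 5032 genes higher, 4346 to 4796 lower, 2227 to 2474 at least 2-fold higher, 1364 to 1430 at least 2-fold lower and medians of 0.031 to 0.053. DESeq2 called 4711 higher and 4932 lower. The replicate block gave 5097 higher and 4797 lower, and same-numbered libraries, which share only a number, correlated at 0.142 and 0.161. With 2 libraries at 20 days, spread at that age rests on 1 difference. Several named genes, among them vit-2, clec-87, hsp-90, aldo-2 and let-2, overlap another annotated gene.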
